A study of Sus scrofa with 30 samples.

Results

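The miR-146 and miR-155 rows of the deposited count table are every row whose number right after ssc-miR- is exactly that of miR-146 or miR-155. The name rule found 5 of 411 rows, namely ssc-miR-146a-5p, ssc-miR-146b, ssc-miR-146a-3p, ssc-miR-155-5p and ssc-miR-155-3p. All 5 rows passed the filter on low counts, as did every other row. Plasma small RNA was sequenced from 3 male Göttingen minipigs that all received a lethal 2.2 Gy total body irradiation (TBI) from a cobalt source. Each minipig gave 1 library 7 days (C7) and 1 day (C1) before TBI, 1 library 6 h after it (named 0d), and then 1 library at each of 1d, 3d and 7d, at 10d and 14d, and finally at 17d and 20d, counted in days from TBI. The study took C7 and C1 as the pre-TBI baseline. Its methods also speak of a pool of 3 pre-TBI time points, but only C7 and C1 are labelled, and these were used here. After looking at the same libraries, the study grouped 0d through 7d as the Early phase and 10d with 14d as Mid. It named 17d Late and 20d LR. No unirradiated animals were included in the comparison, so time, repeated blood collection under anesthesia, dextrose injections and antibiotics cannot be told apart from TBI. The plasma holds RNA of many tissues, and no cell type was isolated.

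The libraries of minipig 3 from 3d onward held 0 to 17 counts in total and were left out. Totals of the other 24 ranged from 24341 to 550316 counts around a median of 240612. Pre-TBI had 6 libraries, Early had 10, Mid had 4, and Late and LR had 2 each. Depth differed between the phases, with 35762 to 103083 counts at Mid and 29159 and 63441 counts at Late. Mid, Late and LR rested on minipigs 1 and 2 alone.

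miR-146a and miR-146b are induced by NF-kB in immune and other cells and repress IRAK1 and TRAF6, the adaptors that carry signals from Toll-like and IL-1 receptors, so they act as a brake on inflammation. miR-155 comes from the BIC (MIR155HG) transcript, rises in activated macrophages and lymphocytes, and represses the signalling inhibitors SOCS1 and SHIP1. Each hairpin gives a 5p and a 3p arm, and miR-146a-5p and miR-155-5p are the arms usually loaded into the silencing complex. miR-146a and miR-146b come from separate loci but share a seed and differ by few bases near the 3′ end. In the RefSeq annotation of Sscrofa11.1, which is not the ssc5 build the counts were made on, MIR146A lies between ATP10B and PTTG1, MIR146B between CUEDC2 and LOC102167427, and MIR155 between NCAM2 and MRPL39. None of these hairpins lies inside a protein-coding gene. The seed decides which mRNAs a miRNA pairs with. The seed of ssc-miR-155-5p, bases 2 to 8, as listed with the study, is the only sequence shown here.
ssc-miR-155-5p seed: UAAUGCU

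The miR-146 rows were among the most variable rows in plasma, and the miR-155 rows were near the detection limit. By mean level, ssc-miR-146a-5p ranked 14 and ssc-miR-146b ranked 15 of 411 rows, while ssc-miR-146a-3p ranked 211, ssc-miR-155-3p ranked 386 and ssc-miR-155-5p ranked 405. Over the 24 libraries the level of ssc-miR-146b had an SD of 2.46 on the log2 CPM scale (CPM, counts per 1e6 after TMM scaling of the library totals), which was rank 1 of 411. ssc-miR-146a-5p had an SD of 2.10 (rank 7), ssc-miR-146a-3p of 1.39 (rank 33), ssc-miR-155-3p of 1.32 (rank 37) and ssc-miR-155-5p of 0.84 (rank 128). The median row had an SD of 0.68. In none of the 4 phases did a miR-146 or miR-155 row differ from pre-TBI at an adjusted p under 0.05.

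ssc-miR-146a-5p, the principal arm of miR-146a, already differed 20.2-fold between the highest and the lowest pre-TBI library. In minipig 1 it stood at 56802 CPM at C7 and 11011 CPM at C1. In minipig 2 it stood at 12520 CPM at C7 and 29499 CPM at C1. In minipig 3 it stood at 2808 CPM at C7 and 2949 CPM at C1. The C7 to C1 difference was thus 5.16-fold in minipig 1, in the opposite direction and 2.36-fold in minipig 2, and 1.05-fold in minipig 3. In the fit of C1 against C7 the log2 difference was -0.73 ± 1.54 (SE; edgeR quasi-likelihood test, adjusted p = 0.997). None of the 5 rows differed between C7 and C1 at an adjusted or an unadjusted p under 0.05, beside 0.73% of all rows at the unadjusted threshold.

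**Figure D1:**
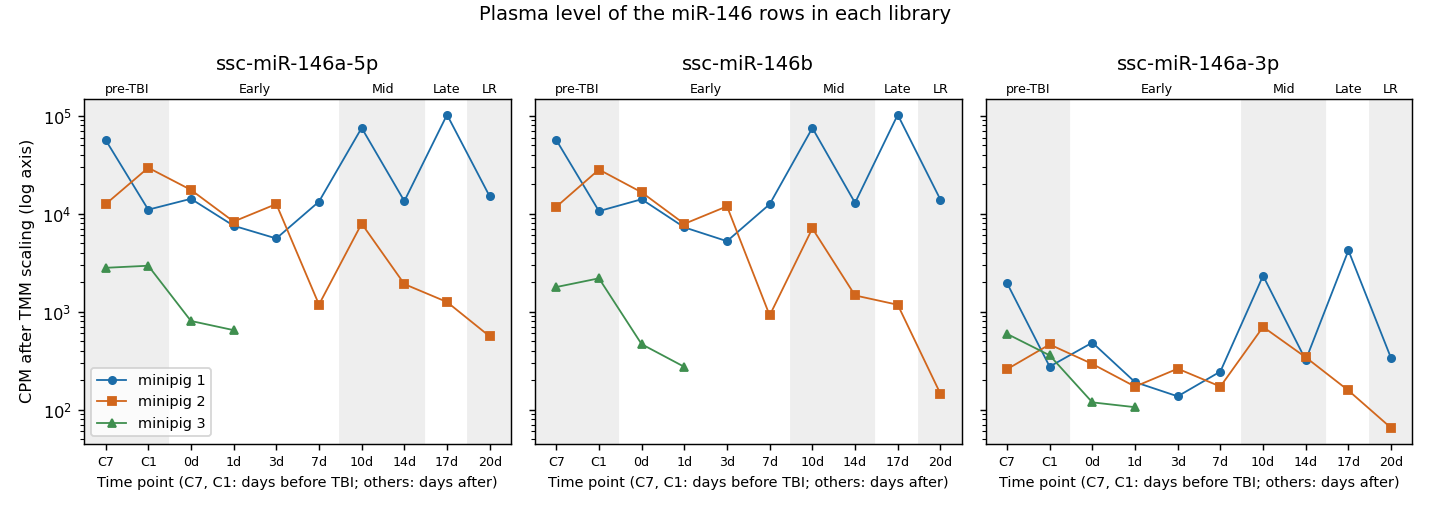
Level of the 3 miR-146 rows (CPM after TMM scaling, log axis) in each of the 24 libraries by time point, with 1 line for each minipig and shading for the phases. For ssc-miR-146a-5p and ssc-miR-146b, minipig 1 peaked at C7, 10d and 17d, minipig 2 dropped at 7d and was at its lowest at 20d, and minipig 3 was below the other minipigs before TBI.

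At Early, ssc-miR-146a-5p was below the mean of C7 and C1 in every minipig. In time order, the 4 Early libraries of minipig 1 held it at 14215, 7546, 5595 and 13309 CPM. Those of minipig 2 held it at 17528, 8327, 12572 and 1183 CPM. The libraries of minipig 3, from 0d and 1d, held it at 805 and 649 CPM. No Early library lay above both pre-TBI libraries of its own minipig, 6 of 10 lay below both, and 4 lay between them. The share of all rows with 6 or more below both is not given here. Taken as means of log2 CPM, the differences from the own pre-TBI level were -1.40 in minipig 1, -1.49 in minipig 2 and -1.98 in minipig 3. The groups overlapped widely when the minipigs were pooled, and the fitted log2 difference was -1.23 ± 0.88 (SE; edgeR, adjusted p = 0.400). A fit with a term for each minipig gave -1.47 ± 0.69 (unadjusted p = 0.0446, adjusted p = 0.213). Without the C7 library of minipig 1 the difference was -0.60, and with C1 alone as the baseline it was -0.83. In plasma, fewer cells releasing a miRNA and less release per cell cannot be told apart.

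ssc-miR-146b, encoded at a separate locus, followed ssc-miR-146a-5p at Early, with own differences of -1.44 in minipig 1, -1.57 in minipig 2 and -2.44 in minipig 3. Its fitted difference was -1.26 ± 0.97 (SE; edgeR, adjusted p = 0.429), and -1.60 ± 0.77 in the fit blocked by minipig (adjusted p = 0.222). It was -0.57 without the C7 library of minipig 1 and -0.83 with C1 alone as the baseline. ssc-miR-146a-3p, the passenger arm of miR-146a, had own differences of -1.61, -0.65 and -1.97 in minipigs 1, 2 and 3. Of its 10 Early libraries, 7 lay below both pre-TBI libraries of the own minipig and none above both (share over all rows not given). Its fitted difference was -1.47 ± 0.57 (SE; edgeR, unadjusted p = 0.0173, adjusted p = 0.186), so in this fit it was the only 1 of the 5 rows with an unadjusted p under 0.05 at Early. Of all rows, 13.6% were lower at that unadjusted threshold and 0.0% passed the adjusted one. The fit blocked by minipig gave -1.48 ± 0.50 for ssc-miR-146a-3p (edgeR, unadjusted p = 0.00722, adjusted p = 0.141). In the blocked fit 4 of the 5 rows, all but ssc-miR-155-5p, were lower at an unadjusted p under 0.05 at Early, beside 17.0% of all rows. With C1 alone as the baseline the value of ssc-miR-146a-3p was -0.76 (unadjusted p = 0.255), and with C7 alone it was -2.06 (unadjusted p = 0.00557). DESeq2 gave a log2 difference of -1.53 for ssc-miR-146a-3p (adjusted p = 0.0535). In a fit of the Early and pre-TBI libraries alone it was -1.43 (edgeR, adjusted p = 0.0387), beside 9.25% of all rows passing the adjusted threshold there. The adjusted p of ssc-miR-146a-3p ranged from 0.0387 to 0.861 over all settings tried.

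No miR-146 row differed from pre-TBI at an adjusted p under 0.05 at a single Early time point. Against pre-TBI, the log2 differences of ssc-miR-146a-5p were, from 0d through 7d, -0.83 ± 1.35, -1.80 ± 1.42, -1.08 ± 1.60 and -1.41 ± 1.64 (SE; edgeR, adjusted p 0.572 to 0.953). ssc-miR-146a-3p was at -1.94 ± 0.85 at 1d (unadjusted p = 0.0344, adjusted p = 0.350), the only miR-146 or miR-155 row with an unadjusted p under 0.05 at 1d, beside 8.76% of all rows lower. In 4 of the 5 rows, all but ssc-miR-155-5p, the Early mean was below the own pre-TBI mean in all 3 minipigs, as it was in 111 of all 411 rows.

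From 3d to 7d and from 14d to 17d, ssc-miR-146a-5p moved in opposite directions in minipigs 1 and 2. It rose in both from 7d to 10d and fell in both from 10d to 14d and from 17d to 20d. Opposite steps were also seen before 7d, as from C7 to C1. ssc-miR-146a-5p dropped 10.6-fold in minipig 2 between 3d and 7d, whereas in minipig 1 it was higher at 7d than at 3d. The last 4 libraries of minipig 1, 10d through 20d, then held it at 75259, 13468, 102487 and 15035 CPM. Those of minipig 2 held it at 7933, 1915, 1256 and 560.1 CPM. At 17d the library of minipig 1 was 81.6-fold above that of minipig 2. Against the own pre-TBI mean, the log2 difference at Late was 2.03 in minipig 1 and -3.93 in minipig 2.

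The fitted differences of ssc-miR-146a-5p from pre-TBI at the later phases carried that disagreement. They were 0.36 ± 1.12 at Mid (edgeR, adjusted p = 0.978), 1.43 ± 1.33 at Late (adjusted p = 0.520) and -1.30 ± 1.55 at LR (adjusted p = 0.719). In the blocked fit they were -0.87, -0.033 and -2.70, and without minipig 1 the value at Late was -3.29. ssc-miR-146b was at 0.38 at Mid, 1.48 at Late and -1.39 at LR, and at -1.01, -0.15 and -3.03 in the blocked fit. The direction at Mid and Late thus differed between these fits. Without minipig 3, which had no library at these phases, ssc-miR-146a-5p was at -0.10 at Mid and 0.71 at Late in the unblocked fit. The cause of these changes was not tested. At LR both minipigs were below their own pre-TBI mean. In minipig 1 the 20d library nevertheless lay between its C7 and C1 libraries for both rows. At LR, the level of ssc-miR-146b in minipig 2 was 119-fold below its own pre-TBI mean and that of ssc-miR-146a-5p was 33.9-fold below, while minipig 1 was 1.76-fold and 1.66-fold below.

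ssc-miR-146a-3p at Late was 1.83 ± 0.86 above pre-TBI on the log2 scale (SE; edgeR, unadjusted p = 0.0443, adjusted p = 0.205). It stood at 4227 CPM (89 counts) in minipig 1 and at 157 CPM (10 counts) in minipig 2, so the value came from minipig 1. Without the 17d library of minipig 2 the difference was 2.83 (adjusted p = 0.0219), a setting in which 1 library stood for Late, assumed to vary like the other groups, and 11.2% of all rows were higher at the adjusted threshold. Without the 17d library of minipig 1 it was -1.88. At Mid it was 0.59 ± 0.72 (adjusted p = 0.970) and at LR -1.60 ± 0.99 (adjusted p = 0.593). In the blocked fit it was 1.11 at Late (unadjusted p = 0.183) and -2.10 at LR (unadjusted p = 0.0271, adjusted p = 0.367).

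**Figure D2:**
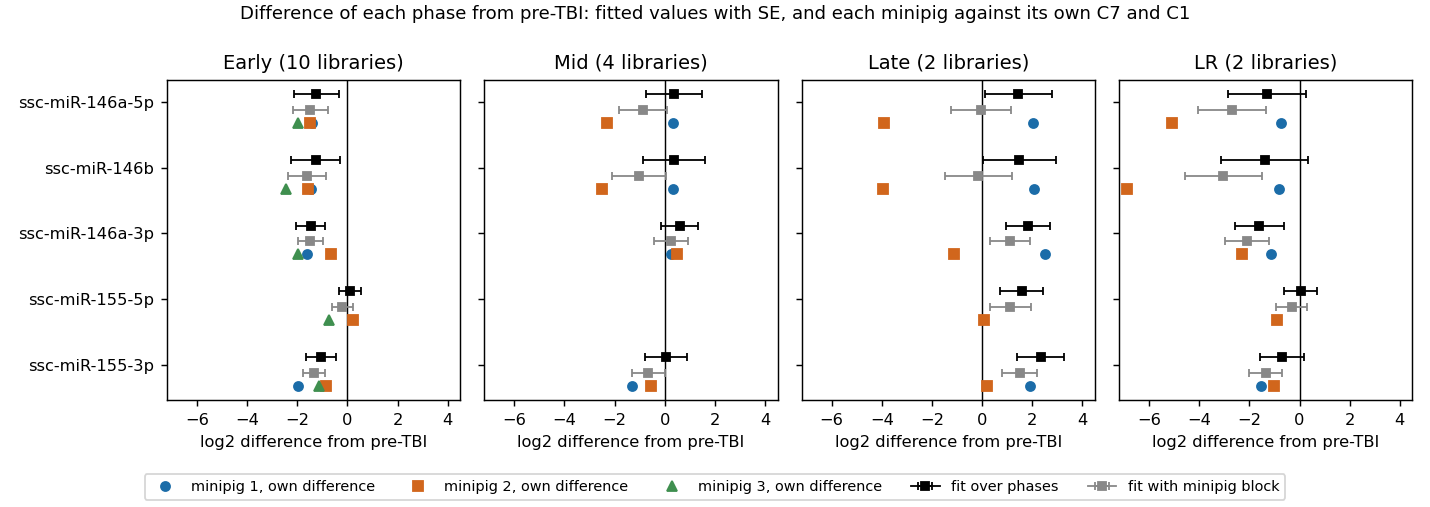
Log2 difference of each phase from pre-TBI for the 5 rows. Squares with bars are edgeR values with their SE, in black without a minipig term and in grey with it, and the points below them are each minipig's mean log2 CPM minus its own pre-TBI mean. No value is drawn for ssc-miR-155-5p at Mid, where no library had more than 3 counts, or for its minipig 1 points, where neither pre-TBI library did. At Early the drawn minipigs lay on the same side of 0 for each row but ssc-miR-155-5p. At Late they lay at opposite sides of 0 for each miR-146 row.

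The 3 libraries in which ssc-miR-146a-5p was highest were those of minipig 1 at 17d, 10d and C7, and they were also its 3 shallowest, with 29159, 59291 and 24341 counts. ssc-miR-146a-5p took 7.40% of all counts at 17d (95% Wilson interval 7.11 to 7.71%), 5.34% at 10d and 4.75% at C7, against 0.578 to 1.52% in the other libraries of minipig 1. In minipig 2 its share went from 3.28% at C1 to 0.0734% at 20d, its deepest library. Across libraries, Spearman's rho of its level with log2 total counts was -0.61 in minipig 1 (n = 10) and 0.22 in minipig 2 (n = 10), as a description. The part of depth in these levels was not tested.

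Other rows held nearly the same counts as the miR-146 rows. In the library of minipig 1 at C7, ssc-miR-146a-5p had 1156 counts, ssc-miR-146b 1153, ssc-miR-183 1141, ssc-miR-490-3p and ssc-miR-490 1136 each, ssc-miR-124a 1173 and ssc-miR-186 1124. These miRNAs belong to other families, and the set of 7 rows was chosen after their values were seen. In that library the highest of the 7 counts was 1.04 times the lowest. The ratio was 1.06 at 10d and 1.07 at 17d in minipig 1 and at most 1.43 in its other libraries. It was 1.19 to 14.2 in minipig 2 and 1.99 to 9.66 in minipig 3. The 7 rows together took 50.5% of all counts in the library of minipig 1 at 17d and 0.785% in the library with the smallest share.

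Within 5% of the count of ssc-miR-146a-5p lay 0 to 12 rows over the 24 libraries, and most at 1d in minipig 3, where none of them was of the set. The other 6 of the set all lay that close in 2 libraries, those of minipig 1 at C7 and 10d, where no further row did. For the other rows among the 30 with the most counts in a library, the median number of rows that close was 1 to 3. ssc-miR-490-3p and ssc-miR-490 had identical counts in every library. How reads that match several miRNAs, or reads of low complexity, were counted is not given in the sources used here, and their part in these counts was not tested.

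**Figure D3:**
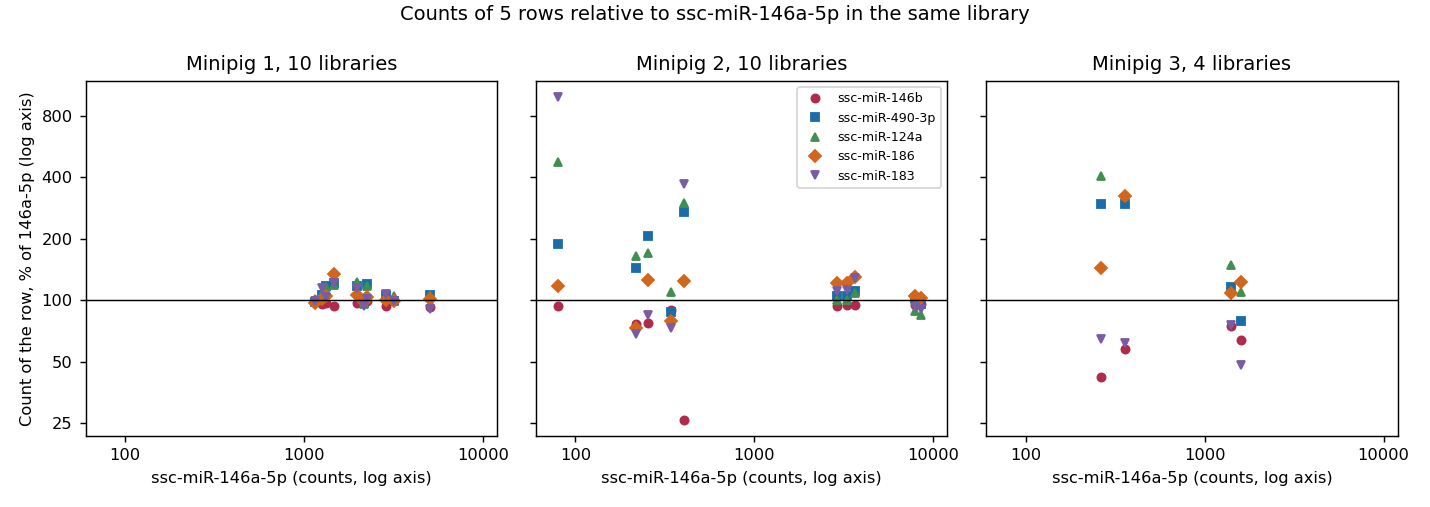
Count of ssc-miR-146b and of 4 rows of other families as a percentage of the ssc-miR-146a-5p count in the same library (log axis), against the ssc-miR-146a-5p count (log axis), in 1 panel for each minipig. The line marks an equal count. In minipig 1 the points lie close to the line, and in the low libraries of minipigs 2 and 3 they spread from 26.0% to several times the ssc-miR-146a-5p count.

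Counts of ssc-miR-146a-5p and ssc-miR-146b were nearly equal in minipig 1, and in minipig 2 from C7 through 3d and at 17d. They were further apart in the other libraries of minipig 2 and in minipig 3. ssc-miR-146a-5p exceeded ssc-miR-146b in all 24 libraries, by 1 to 582 counts with a median of 121. The ssc-miR-146b count was 92.7 to 99.95% of the ssc-miR-146a-5p count in minipig 1, 26.0 to 95.8% in minipig 2 and 42.2 to 74.4% in minipig 3. It was lowest at 20d in minipig 2, with 105 against 404 counts, and at 1d in minipig 3, with 111 against 263 counts. The mature forms are near-identical, and whether reads were counted for both rows was not tested. The excess of ssc-miR-146a-5p over ssc-miR-146b was 34.3 to 1409 CPM without TMM scaling.

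The log2 ratio of ssc-miR-146a-5p to ssc-miR-146b needs no scaling between libraries. As the mean of the within-minipig differences from pre-TBI, it moved by 0.195, 0.101, -0.0041 and 0.973 in the 4 phases in their order. None of these 4 differences passed a two-sided exact permutation test that moved time labels within each minipig (p = 0.0585, 0.167, 0.889 and 0.111, adjusted over the 4 phases 0.222, 0.222, 0.889 and 0.222). At Late and LR the test had 9 arrangements each, and 0.111 was the smallest p it allowed. At Mid it had 36 arrangements and a smallest p of 0.0278. After adjustment over the 4 phases, Mid, Late and LR thus could not have passed whatever the values, and only Early could. The mean at LR came from minipig 2, being 0.0830 without that minipig and 1.86 without minipig 1. The mean at Early was 0.0560 without minipig 3, 0.255 without minipig 2 and 0.275 without minipig 1, and that at Mid was 0.00473 without minipig 2 and 0.197 without minipig 1.

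The arms of miR-146a kept no fixed ratio. ssc-miR-146a-3p was 1.84 to 4.12% of the ssc-miR-146a-5p count in minipig 1, 1.57 to 17.9% in minipig 2 and 12.2 to 21.2% in minipig 3. The highest share, 339 against 1600 counts, was at C7 in minipig 3, before TBI. By phase, the range of the passenger arm's share was 1.57 to 21.2% at pre-TBI and 1.67 to 16.3% at Early. Within minipig 2 the share was 1.57 to 2.09% from C7 through 3d and 8.82 to 17.9% from 7d through 20d. The later range rests on 10 to 47 counts of ssc-miR-146a-3p. At Mid, the log2 difference from the own pre-TBI mean in minipig 2 was -2.30 for ssc-miR-146a-5p and 0.49 for ssc-miR-146a-3p. In minipig 1 these were 0.35 and 0.23. The cause was not tested.

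ssc-miR-155-5p, by general knowledge the principal arm, had 1 to 33 counts in a library. In time order from C7 through 20d, minipig 1 had 1, 2, 4, 7, 11, 6, 3, 2, 5 and 20 counts and minipig 2 had 13, 18, 33, 26, 12, 25, 2, 2, 4 and 20. Minipig 3 had 26, 9, 5 and 8 counts from C7 through 1d. The highest count was in minipig 2 at 0d, the highest level was in minipig 1 at 17d (237 CPM from 5 counts), and the Mid libraries of both minipigs were at or under 3 counts. Pooled over the Early libraries of a minipig, it stood at 30.0 CPM (here counts over the total, without TMM scaling) in minipig 1 (95% Wilson interval 20.8 to 43.4), 76.1 in minipig 2 (62.3 to 92.9) and 13.3 in minipig 3 (7.78 to 22.8). Before TBI these were 18.3 (6.22 to 53.7), 63.7 (44.9 to 90.4) and 41.8 (30.1 to 58.2). The intervals overlapped in minipigs 1 and 2 and did not in minipig 3, and they cover counting error only.

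The fitted log2 difference of ssc-miR-155-5p was 0.11 ± 0.44 at Early (SE; edgeR, adjusted p = 0.905), 1.58 ± 0.86 at Late (adjusted p = 0.269) and 0.046 ± 0.66 at LR (adjusted p = 0.966). No fold is given at Mid. The sign at Early and at LR changed in the blocked fit, where the values were -0.19 and -0.32. At Late only 5 and 4 counts stood behind the value. None of these values of ssc-miR-155-5p passed the threshold, and at LR 20 counts in each library stood behind the value.

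ssc-miR-155-3p, the passenger arm by general knowledge and not by these counts, had more counts than ssc-miR-155-5p in 17 of 24 libraries, with 2 to 24 counts in a library. Every one of its 10 Early libraries lay below both pre-TBI libraries of its own minipig on the log2 CPM scale, and the same held for 2.19% of all rows (9 of 411). As a share of the library total, without TMM scaling (an alternative chosen after seeing the data), 9 of the 10 did. The 1d library of minipig 2 (0.00674%) lay above its C7 library (0.00661%). On that scale 1 of all 411 rows had every Early library below, and it was not ssc-miR-155-3p. The share of all rows with 9 or more below is not given here. Pooled over libraries, ssc-miR-155-3p went from 128 CPM, again without TMM scaling, before TBI (95% Wilson interval 83.7 to 196) to 46.1 (34.3 to 62.1) at Early in minipig 1. In minipig 2 it went from 71.9 (51.7 to 100.03) to 45.9 (35.5 to 59.4). In minipig 3 it went from 41.8 (30.1 to 58.2) to 11.3 (6.29 to 20.2). The intervals before TBI and at Early were apart in minipigs 1 and 3 and overlapped in minipig 2. The pattern was noticed in these data and rests on 21 to 58 counts for each minipig and phase except Early in minipig 3, which had 11.

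The fitted log2 difference of ssc-miR-155-3p at Early was -1.04 ± 0.59 (SE; edgeR, unadjusted p = 0.0917, adjusted p = 0.336), and -1.34 ± 0.44 in the fit blocked by minipig (unadjusted p = 0.00558, adjusted p = 0.127). On counts thinned to equal library totals no Early library kept more than 3 counts, so no fold is given. Over the other settings its adjusted p at Early ranged from 0.118 to 0.772. At Late the difference was 2.34 ± 0.93 (unadjusted p = 0.0198, adjusted p = 0.157), from 17 counts (583 CPM without TMM scaling) in minipig 1 and 5 counts (78.8 CPM) in minipig 2. Without the 17d library of minipig 2, with the same 11.2% of all rows higher, it was 3.45 (adjusted p = 0.0197), and without that of minipig 1 it was 0.094. At Late, 2 of the 5 rows, ssc-miR-146a-3p and ssc-miR-155-3p, were higher at an unadjusted p under 0.05 and none at the adjusted threshold, beside 15.6% of all rows higher at the unadjusted and 4.38% called at the adjusted threshold. DESeq2 also called none of the 5 rows at an adjusted p under 0.05 in any phase. At Mid and LR the unblocked edgeR fit gave none of them an unadjusted p under 0.05 either, beside 5.35% and 5.6% of all rows. The blocked fit gave 1 at LR, ssc-miR-146a-3p, beside 7.3% of all rows lower. At Late it gave 1, ssc-miR-155-3p (1.49, unadjusted p = 0.0480), beside 13.9% of all rows higher. ssc-miR-155-3p at LR was at -0.70 (adjusted p = 0.730).

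**Figure D4:**
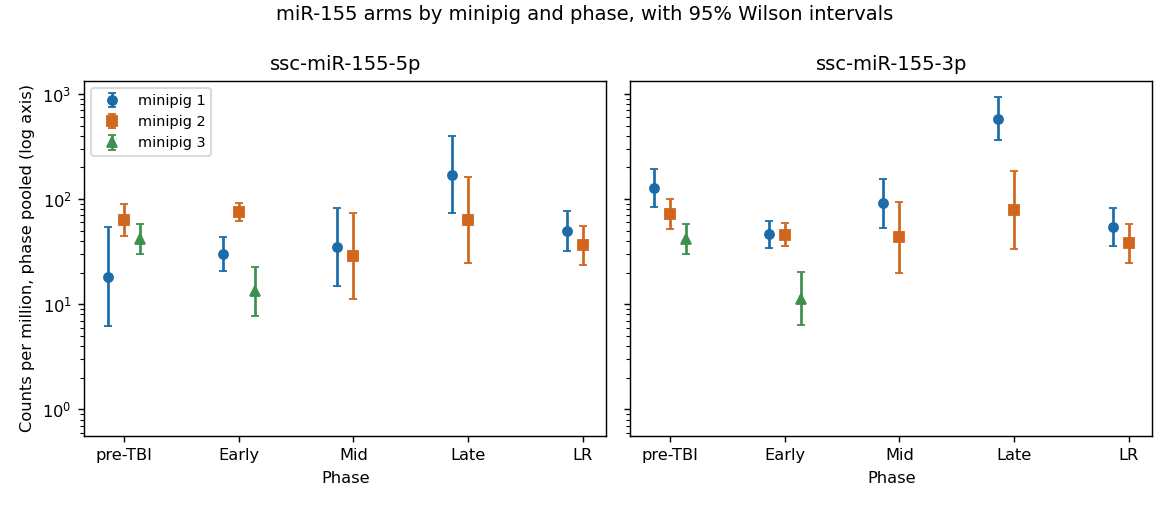
ssc-miR-155-5p and ssc-miR-155-3p in CPM without TMM scaling (log axis), pooled over the libraries of a minipig and phase, with 95% Wilson intervals that cover counting error only. ssc-miR-155-3p was lower at Early than before TBI in each minipig, and at Late minipig 1 stood at 583 and minipig 2 at 78.8.

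By pattern over the 24 libraries, the 5 rows most like ssc-miR-146a-5p were ssc-miR-146b (Spearman's rho 0.998), ssc-miR-490-3p and ssc-miR-490 (0.986 each), ssc-miR-124a (0.982) and ssc-miR-186 (0.971). Of 402 rows with a median of at least 10 counts, 9 had a rho of at least 0.9 with it, while the median rho was -0.039. With levels centred within each minipig, 7 rows did. All rows of a library share its depth and scaling, so these values describe the table only. ssc-miR-146a-3p resembled ssc-miR-450c-3p (0.910) and ssc-miR-3613 (0.90) most, and its rho with ssc-miR-146a-5p from the same hairpin was 0.70. The highest rho was 0.757 for ssc-miR-155-5p, with ssc-miR-9836-3p, and 0.826 for ssc-miR-155-3p, with ssc-miR-135. The rho between the miR-155 arms was 0.48.

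Cell type markers were set beside the miR-146 levels. The summed muscle miRNAs (ssc-miR-1, ssc-miR-133a-3p and ssc-miR-206) had a rho of 0.85 with both ssc-miR-146a-5p and ssc-miR-146b. They stood at 1130, 1046 and 1092 CPM in the libraries of minipig 1 at C7, 10d and 17d, and at 435 to 1130 CPM over all phases, a range far narrower than that of ssc-miR-146a-5p. The erythroid miRNAs (ssc-miR-451, ssc-miR-144 and ssc-miR-486) had a rho of 0.16 with ssc-miR-146a-5p, and the log2 ratio of ssc-miR-451 to ssc-miR-23a, used as an index of red cell lysis, had a rho of 0.0043. The liver marker ssc-miR-122 had a rho of 0.48, the myeloid list of 0.29, the lymphocyte list of -0.17 and the platelet list of -0.060. Of the 3 listed myeloid markers 2, ssc-miR-142-3p and ssc-miR-142-5p, were found in the table, so the myeloid value rests on miR-142 alone. No marker found was at 0 in any library used, and the part of other tissues in the miR-146 levels was not tested.

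A list of 27 rows of other miRNAs linked to inflammation or immune cells was set beside the miR-146 and miR-155 rows. At Early 0 of 27 passed the adjusted threshold (edgeR) and 1 was higher at an unadjusted p under 0.05, beside 5.11% of all rows, with a median log2 difference of 0.07 beside 0.02 over all rows. The median of the 5 miR-146 and miR-155 rows was -1.23. At the single time point 3d, 1 of 27 passed the adjusted threshold, beside 1.22% of all rows. It was ssc-miR-342, a lymphocyte marker, at 1.5 ± 0.27 (edgeR, adjusted p = 0.00947). Over the whole Early phase, ssc-miR-21, induced by inflammatory signals in many cells, was at 0.50 ± 0.31 (edgeR, adjusted p = 0.362). In the same phase ssc-miR-150, abundant in mature lymphocytes, was at 0.15 ± 0.21 (adjusted p = 0.696). At Mid the median was -0.24 beside 0.05 over all rows, with 0 of 27 passing the adjusted threshold and 2 lower at an unadjusted p under 0.05, beside 3.16% of all rows. At LR it was 0.16 beside -0.01, with 0 of 27 passing the adjusted threshold and 1 higher at an unadjusted p under 0.05, beside 3.65% of all rows.

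At Late 6 of 27 rows of this list were higher at the adjusted threshold, beside 3.89% of all rows, and none lower, with a list median of 0.20 beside 0.08 over all rows. They were ssc-miR-181a (4.56 ± 0.86), ssc-miR-9-1 and ssc-miR-9-2 (3.72 ± 0.63 each, with identical counts), ssc-miR-181b (2.93 ± 0.55), ssc-miR-9 (2.73 ± 0.57) and ssc-let-7e (2.29 ± 0.41), with adjusted p from 0.000656 to 0.00325. Without the 17d library of minipig 2, 1 of these 6 calls, ssc-miR-9, was kept (2.17, adjusted p = 0.0444), and ssc-miR-181a was at -2.34. That library held 7926 counts of ssc-miR-181a against 11 in the 17d library of minipig 1, and it held 80 counts of ssc-miR-146a-5p (1256 CPM).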

How the data were processed

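The authors made the libraries with a TruSeq small RNA kit, trimmed the reads (Cutadapt), mapped them with Bowtie 2.2.3.0 to the pig genome (ssc5), re-mapped them to miRBase and used miRDeep2 for the quantification. The deposited file holds raw counts per ssc-miRNA and library, without normalization. How reads matching several miRNAs were counted is not given in the sources used here. All 30 count columns were matched to a minipig and time point.

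The members and the lists of related and marker miRNAs were chosen with earlier results of these data known. Rows are named by that rule, as the 5 rows most alike by Spearman's rho, and as related rows called in a phase (at most 5, here all 6 at Late) or ssc-miR-21 and ssc-miR-150. Markers, ssc-miR-342 at 3d, ssc-miR-183 and the set of 7 near-equal rows fall outside that rule or were chosen after their values were seen. Libraries under 1000 counts were left out. Tests used edgeR 4.0.16 (R 4.3.3) with its quasi-likelihood test, TMM scaling and a minimum of 0.5 CPM, exceeded in 3 or more libraries, with 5 phase groups (or 9 time groups, or 10 for C1 against C7) in 1 fit. Benjamini-Hochberg adjustment of p-values ran over all 411 rows. Levels are CPM, and log2 CPM used a prior count of 2. No fold is given where no library of a group had more than 3 counts. The log2 ratio added 0.5 to each count and used an exact permutation test. Fits were also run on simulated data, with independent libraries and less spread between them than in these data. The simulation thus does not cover repeated libraries of a minipig or rows as variable as those of miR-146. Alternatives were RLE, upper-quartile and library-size scaling, other filters, DESeq2 1.42.0, a likelihood ratio test, C7 or C1 alone as baseline, thinned counts, the minipig as a block, and leaving out minipigs and libraries. Python 3.11.15 with scipy 1.17.1 made the other values.

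Libraries of 1 minipig come from the same animal, which pairs them. After subtracting phase means, they correlated at a mean of 0.16 over 96 pairs, against -0.15 over 180 pairs of different minipigs. Each minipig and time point has 1 library. The p-values of the main fit, which has no minipig term, rest on the spread between libraries treated as independent. Those of the blocked fit rest on the spread within minipigs. The 3 animals were sampled repeatedly, and repeated libraries of a minipig are not independent. Neither set of p-values thus measures the spread between animals alone. No pair of libraries of a phase agreed within sampling noise. Intervals cover counting error only, since reads had no molecular identifiers.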

Additional observations from a re-analysis of the deposited data

How the results depend on the processing

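Of 248 alternative values for the phase differences, 221 kept their direction and their side of the adjusted threshold, 1 passed it and 26 changed sign. With the minipig as a replicate block, log2 differences changed sign for ssc-miR-155-5p at Early (-0.19) and LR (-0.32), ssc-miR-146a-5p at Mid (-0.87), Late (-0.033) and 10d (-0.27), ssc-miR-146b at Mid (-1.01), Late (-0.15) and 10d (-0.44) and ssc-miR-155-3p at Mid (-0.66), and the block changed no call of the 5 rows at the adjusted threshold. At the unadjusted threshold it added ssc-miR-146a-5p, ssc-miR-146b and ssc-miR-155-3p at Early and ssc-miR-146a-3p at LR and ended that of ssc-miR-146a-3p at Late. On counts thinned to 24341 per library with the replicate block, the values for ssc-miR-146a-5p, ssc-miR-146b and ssc-miR-155-3p were -0.82, -0.11, -0.24, -0.95, -0.24, -0.40 and -0.34 in the same order. Thinning left ssc-miR-155-5p before TBI, and ssc-miR-155-3p at Early and LR, with no library above 3 counts, so no thinned value is given for these. With C7 alone as baseline ssc-miR-155-5p was at -0.29 at Early and -0.40 at LR, ssc-miR-155-3p at Mid was -0.15, and the ratio difference at Late was 0.000403. ssc-miR-155-3p at Mid was -0.089 with library size only, -0.046 with DESeq2 and -0.093 with the likelihood ratio test. ssc-miR-155-5p at LR was -0.061 with upper-quartile scaling and -0.094 with library size only. The ratio difference of pooled means at Mid was -0.062. ssc-miR-146a-3p passed the threshold at Early in the fit of the 2 groups compared (-1.43), beside 9.25% of all rows. The cause of these changes was not tested.

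Leaving out the libraries of minipig 1 at C7, 10d and 17d, an alternative chosen after seeing the data, gave -0.55 and -0.56 for ssc-miR-146a-5p and ssc-miR-146b at Mid, -3.21 and -3.20 at Late, -1.39 for ssc-miR-146a-3p at Late and -0.093 for ssc-miR-155-5p at LR.

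Each minipig was left out in turn from the phase, time point and ratio results, and each library from the phase results. Directions turned or calls were made in the following. ssc-miR-155-5p ranged from -0.39 to 0.23 at Early and from -0.67 to 0.76 at LR. At Mid, ssc-miR-146a-5p ranged from -1.30 to 1.32, ssc-miR-146b from -1.38 to 1.36, ssc-miR-146a-3p from -0.39 to 1.14 and ssc-miR-155-3p from -0.47 to 0.61. At Late, ssc-miR-146a-5p ranged from -3.86 to 2.42, ssc-miR-146b from -3.89 to 2.47 and ssc-miR-146a-3p from -1.88 to 2.83, with the lower end without the 17d library of minipig 1 and the upper without that of minipig 2, and ssc-miR-155-3p from 0.094 to 3.45. ssc-miR-146a-5p and ssc-miR-146b ranged from -1.60 to 0.040 and from -1.64 to 0.083 for 3d, and from -0.58 to 2.07 and from -0.62 to 2.11 for 10d, each without minipig 2 or 1. The ratio difference at Late ranged from -0.026 to 0.017.

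Rows called over the whole table at an adjusted p under 0.05 ranged over the alternatives, single libraries left out aside, from 0 to 38 at Early (0 with the main settings), 0 to 77 at Late (18) and 0 to 6 at LR (0), and stayed at 0 at Mid. At an unadjusted p they ranged from 35 to 112 at Early (77), from 11 to 32 at Mid (22) and from 13 to 65 at LR (23), and at Late from 9.25 to 32.1% of the 411 rows (22.6%). The filter of at least 10 counts in every library tested 170 rows and is not in these ranges. It gave 19, 8, 45 and 10 rows in the 4 phases in their order at an unadjusted p, and 5, 0, 6 and 0 at the adjusted threshold. Leaving out the C1 library of minipig 1 gave 1 row higher and 40 lower at the adjusted threshold at Early, of 411 tested. Without the 17d library of minipig 2, 108 passed the adjusted threshold at Late, where the lone library was assumed to vary like the other groups. The miR-155 rows had at most 33 counts in a library, which limits their precision, and Late and LR had 2 libraries each.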
